A study of Mus musculus with 4 samples.

Results

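The red cells and reticulocytes of this data set were the droplets in which globin messages dominated. A cell barcode was taken as a member when it held at least 500 unique molecular identifiers (UMIs, each 1 counted RNA molecule) and the adult globin genes *Hba-a1*, *Hba-a2*, *Hbb-bs* and *Hbb-bt* made up at least 50% of them. This rule took 97 of 36876 barcodes (0.263%). The members were thus chosen by their globin UMIs, and the globin share is given below as a description with no test. Tests across genes concerned the RNA left after all 14 globin genes had been set aside. Comparisons between mice numbered 22, of which 8 were on globin UMIs and support nothing here. The share of barcodes that were members and the median UMIs per member also rest on the globin UMIs that chose the members.

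The samples were whole brains of 4 male C57BL/6J mice, 1 animal for each combination of age and diet. At diet start the age was 3 to 4 months for adult and 23 to 24 months for aged mice. For 8 weeks they ate a modified AIN-93M diet that was either low in fiber, with 0% inulin, or high in fiber, with 5% of this fermentable fiber. All diets held 1% cellulose. Each brain was perfused with saline and dissociated with steps that removed red blood cells, myelin and dead cells, which limits what the recovered red cells can say about blood, and single cells were counted by 3′ droplet sequencing. The barcodes held 115814810 UMIs in the adult 0% mouse, 111648775 in the adult 5% mouse, 88248117 in the aged 0% mouse and 108131200 in the aged 5% mouse. With 1 mouse per condition, age was compared as 2 mice against 2 across diets and diet as 2 against 2 across ages, so that the smallest two-sided p an exact permutation test can give was 0.333.

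Red cells fill with hemoglobin, a tetramer of alpha and beta globin chains that each hold a heme. Their precursors divide in the marrow under GATA1 and KLF1, make heme and a spectrin-based membrane skeleton, and then expel the nucleus to become reticulocytes, which keep RNA for a short time while ubiquitin and autophagy pathways clear organelles. A mature red cell holds almost no RNA, and one without a nucleus should hold almost none of the nuclear RNA *Malat1*. *Alas2* encodes the first and rate-limiting enzyme of erythroid heme synthesis.

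Promoter sequences are shown to identify the genes that chose the droplets and *Alas2*, an abundant erythroid gene in their other RNA. Each line is the 250 bases before the RefSeq start on the coding strand, in GRCm38.p6, at chr11:32283422-32283671 (plus strand) for *Hba-a1*, chr7:103827929-103828178 (minus strand) for *Hbb-bs*, chr7:103813924-103814173 (minus strand) for *Hbb-bt* and chrX:150547167-150547416 (plus strand) for *Alas2*. Capitals mark matches on either strand to a GATA motif, a CACCC box, a CCAAT box or a TATA-type motif. The GATA motif searched was AGATAA with its first base also allowed as T and its last base also allowed as G. The TATA-type motif searched was spelled ATATAA. In *Hbb-bt* a reverse and a forward CCAAT match lie next to each other. RefSeq starts and those of the gene positions given further on, from GENCODE, are not the same base.
Hba-a1: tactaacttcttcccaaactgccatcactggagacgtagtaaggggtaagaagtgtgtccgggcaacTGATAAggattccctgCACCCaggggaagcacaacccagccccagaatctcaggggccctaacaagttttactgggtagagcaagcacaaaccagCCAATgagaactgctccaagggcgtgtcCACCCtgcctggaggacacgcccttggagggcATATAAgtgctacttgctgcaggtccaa
Hbb-bs: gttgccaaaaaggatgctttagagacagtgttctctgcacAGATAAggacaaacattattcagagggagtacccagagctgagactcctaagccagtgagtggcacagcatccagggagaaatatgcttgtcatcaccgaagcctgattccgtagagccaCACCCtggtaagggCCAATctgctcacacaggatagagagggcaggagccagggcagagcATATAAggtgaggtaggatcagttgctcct
Hbb-bt: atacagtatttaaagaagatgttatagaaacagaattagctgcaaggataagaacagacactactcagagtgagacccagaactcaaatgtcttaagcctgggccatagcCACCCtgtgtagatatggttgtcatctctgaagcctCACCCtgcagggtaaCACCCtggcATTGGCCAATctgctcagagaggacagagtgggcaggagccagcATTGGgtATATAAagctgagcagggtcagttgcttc
Alas2: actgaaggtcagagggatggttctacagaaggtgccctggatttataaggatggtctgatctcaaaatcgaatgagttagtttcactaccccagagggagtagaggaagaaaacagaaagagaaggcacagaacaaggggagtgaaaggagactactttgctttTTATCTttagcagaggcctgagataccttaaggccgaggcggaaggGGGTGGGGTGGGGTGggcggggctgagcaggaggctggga
The *Hba-a1* and *Hbb-bs* windows held all 4 motifs, the *Hbb-bt* window held all but the GATA motif, and the *Alas2* window held GATA and CACCC matches. Of 32851 RefSeq promoter windows of this length, 26.5% held a GATA match, 52.0% a CACCC match, 33.8% a CCAAT match, 9.10% an ATATAA match and 0.508% all 4. The windows of *Hba-a1* and *Hba-a2*, 300 bases with the first 50 after the start, shared a run of 297 bases. Those of *Hbb-bs* and *Hbb-bt* shared no run longer than 14 bases. A match describes these letters and is not evidence of binding.

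Few members were found in any mouse, and more of them in the mice fed 5% inulin. The adult 0% mouse had 11 of 9246 barcodes (0.119%, exact 95% interval 0.0594% to 0.213%), the adult 5% mouse 30 of 10256 (0.293%, 0.197% to 0.417%), the aged 0% mouse 18 of 7881 (0.228%, 0.135% to 0.361%) and the aged 5% mouse 38 of 9493 (0.400%, 0.283% to 0.549%). These binomial intervals reflect counting error alone. Both mice on 5% inulin were above both on 0% inulin, by 0.173 percentage points on average (exact permutation p = 0.333, the smallest this design allows, and 0.733 after Benjamini-Hochberg adjustment over the 22 comparisons), and the age groups overlapped. No member's barcode sequence recurred in another mouse. Of the 97 members, 92 lay within upper limits on UMIs and mitochondrial share placed 3 median absolute deviations above the median, and 5 exceeded the UMI limit.

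**Figure D1:**
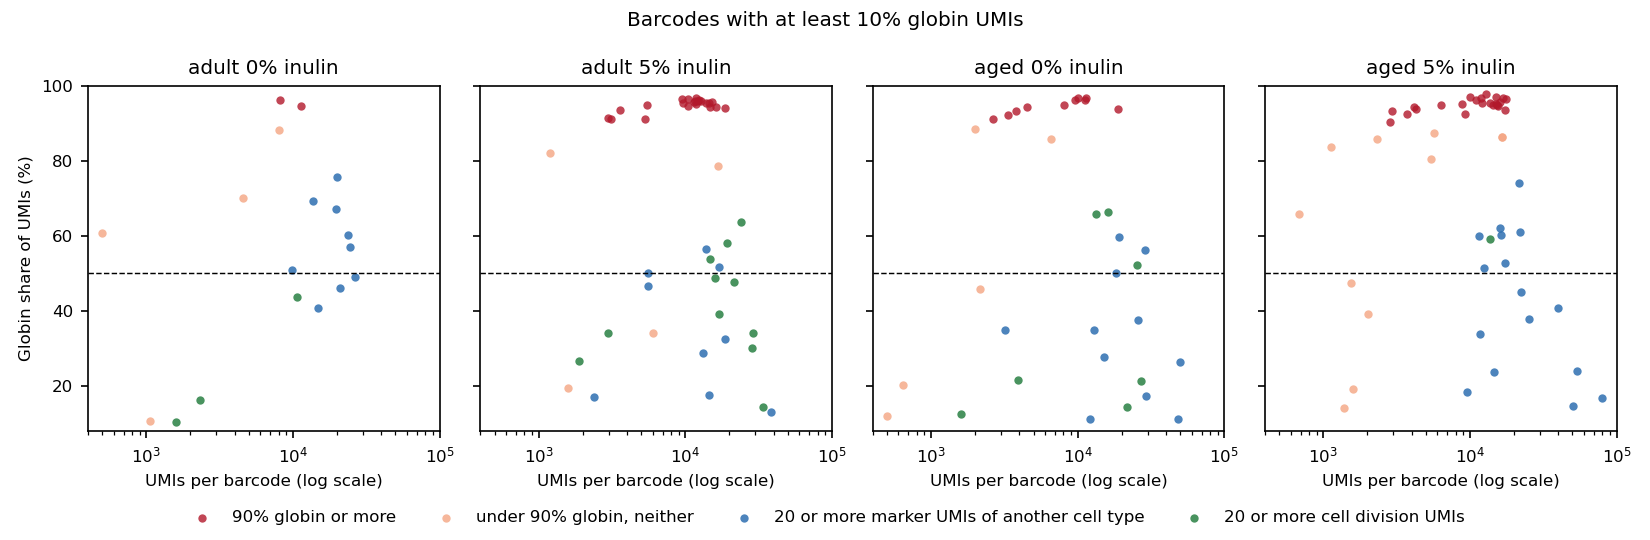
Globin share of UMIs (percent) against UMIs per barcode (log scale) for every barcode with at least 10% globin, 1 panel per mouse, with the dashed line at the 50% limit and colors for 4 sets of droplets. Of the 97 members, 57 lie at 90% globin or more, 10 between 80 and 90% and 30 between 50 and 80%, and the adult 0% mouse has 2 at 90% or more.

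Globin RNA lay mostly inside the members, which held 76.3% of all UMIs of the 4 globin genes in the data. The other barcodes carried a median of 0, 1, 0 and 1 globin UMIs in the adult 0%, adult 5%, aged 0% and aged 5% mice, and 39.7%, 71.9%, 49.0% and 50.1% of them held at least 1. What part of this was free RNA was not tested. The share within members ran from 50.1% to 97.7%. Just inside the limit, 8 members lay between 50 and 55%, and just outside it 8 barcodes lay between 45 and 50%. In all, 51 barcodes lay between 10 and 50%. Embryonic globins were absent or nearly so. *Hba-x*, *Hbb-bh1* and *Hbb-bh2* had 0 UMIs in 1142921 member UMIs, and the most abundant minor globin, *Hbq1b*, had 22.

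The label matched most of the members but not all. The members were divided into sets by the globin share and by the RNA besides globins, with limits set after the droplets had been seen. In 57 members (2 in the adult 0%, 22 in the adult 5%, 10 in the aged 0% and 23 in the aged 5% mouse) globin made up at least 90% of UMIs. In 19 (6, 3, 3 and 7) at least 20 UMIs came from the marker list of 1 other cell type, the choroid plexus list aside. In 7 (0, 3, 3 and 1) at least 20 UMIs came from a list of 8 progenitor and cell division genes, called the division list below. It held *Kit*, *Gata2*, *Cd34*, *Mki67*, *Top2a*, *Tubb5*, *Stmn1* and *Pcna*. The remaining 14 (3, 2, 2 and 7) met none of these limits. The marker counts left a gap, since no member outside the 19 had more than 9 UMIs of such a list and each of the 19 had at least 66.

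**Figure D2:**
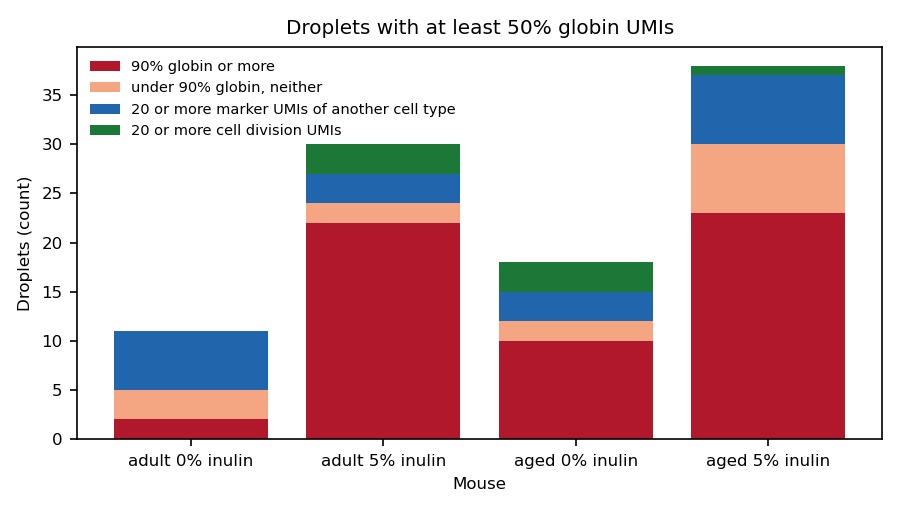
Number of droplets with at least 50% globin UMIs in each mouse, as stacked bars divided into the 4 sets. The adult 0% mouse has 6 of its 11 droplets in the set with markers of another cell type, and the 5% mice have 22 and 23 droplets above 90% globin.

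The 57 droplets above 90% globin carried the RNA that the label describes. They held a median of 11395 UMIs but 222 genes, and after globin a median of 428 UMIs was left. *Malat1*, a nuclear RNA, had 0 to 11 UMIs in them (median 2), and no droplet held a UMI of the division genes *Mki67* or *Top2a*. The 19 droplets with another cell type's markers each held 71 to 537 *Malat1* UMIs (median 239) and a median of 2503 genes. A high globin share itself leaves few other UMIs, and as a share of non-globin UMIs *Malat1* took 0.477% in the 57 droplets and 3.90% in the 19. In 17 of those 19 the leading list was that of endothelial cells, such as the tight junction gene *Cldn5*, and in 2, 1 in each mouse on 5% inulin, that of microglia, with 389 and 357 UMIs. No doublet caller was run, and whether these 19 droplets held 2 cells was not tested.

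The 7 droplets with division genes carried red cell RNA together with nuclear RNA, which the label of red cells and reticulocytes does not cover. They held 44 to 257 *Malat1* UMIs and 1583 to 2717 genes. *Mki67*, a proliferation marker, had 15 to 40 UMIs in each, a value the limit partly chose. These 7 droplets held 22.7% of the members' non-globin UMIs, and more than that of some genes the limit had not used. Of the 84 UMIs of *Klf1*, a master regulator of globin transcription, 83 came from these 7 droplets, and so did 218 of the 237 UMIs of the Rh blood group gene *Rhd*, 181 of 191 of *Hemgn* and 154 of 160 of the heme synthesis enzyme gene *Cpox*. All 43 UMIs of the glycophorin C gene *Gypc* and all 50 of the beta spectrin gene *Sptb* were there. *Kit*, a receptor of earlier progenitors that is itself on the division list, had 0 UMIs in all 97 members. *Cd34*, also on that list, had 52 UMIs in members, all in the droplets with another cell type's markers. Endothelial markers were at 0 to 6 UMIs in each of the 7. The adult 0% mouse had none of these 7 droplets. Between 10 and 50% globin, 29 barcodes also had at least 20 UMIs of the division list, with 5 in the adult 0%, 10 in the adult 5%, 9 in the aged 0% and 5 in the aged 5% mouse. Of these, 14 also had at least 20 marker UMIs of another cell type and 15 did not.

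**Figure D3:**
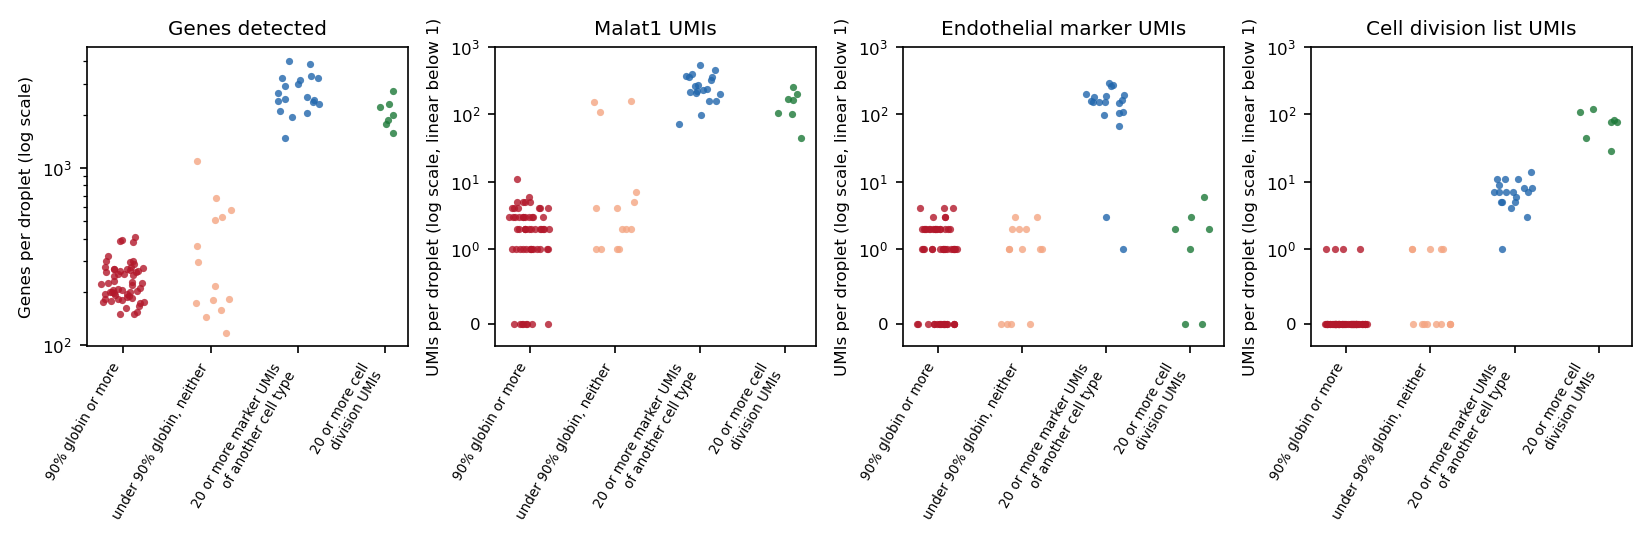
Genes detected, *Malat1* UMIs, endothelial marker UMIs and cell division list UMIs per droplet (log scales, linear below 1 for UMIs), with 1 point per droplet in 4 sets and random sideways spread. The droplets above 90% globin sit at 0 to 11 *Malat1* UMIs, and the droplets with division genes or another cell type's markers sit at 44 or more.

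Counts of 3′ tags do not scale with the length of a transcript. How well reads can be assigned still differs between genes, so that levels of different genes compare only roughly. What was left besides globin in the droplets above 90% globin came to 27874 UMIs, spread over 4391 genes. Leaving aside *Gm42418* (7.41% of non-globin UMIs), a gene model that overlaps ribosomal RNA, and the mitochondrial ribosomal RNA *mt-Rnr2* (4.27%), the leading genes included *Ttr* (4.09%), *Alas2* (2.72%), the ferritin light chain *Ftl1* (2.58%), the ubiquitin ligase gene *Mkrn1* (2.54%), *Bpgm* (2.35%), whose enzyme makes the 2,3-bisphosphoglycerate that lowers the oxygen affinity of hemoglobin, the ubiquitin gene *Ubb* (1.99%) and the glutathione peroxidase gene *Gpx1* (1.64%). Red cell genes of the 8 erythroid lists together made up 25.8% of these UMIs, against 14.97% in the division droplets and 4.03% in the droplets with another cell type's markers. *Alas2* was in 56 of the 57 droplets. Over all 97 members, 10 of the 20 most abundant non-globin genes were called higher in the test described below, in which 2.43% of all genes were. The 20 were ranked by the members' own UMIs, so that this count is a description and not an enrichment. The 2.43% is over 20017 genes, of which 8152 had no UMI in any member. The 10 were *Gm42418*, *Ftl1*, *Gpx1*, *Ubb*, *H3f3a*, *Alas2*, *Mkrn1*, *Bpgm*, *Prdx2* and *Car2*, while *Ttr*, *mt-Cytb* and *Cst3* were called lower.

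*Ttr* encodes transthyretin, which the choroid plexus makes, and is not a red cell gene. It had 8 to 44 UMIs in each of the 57 droplets and at least 1 UMI in all 97 members. In the other barcodes it took 1270, 1010, 804 and 864 of every 10000 non-globin UMIs in the adult 0%, adult 5%, aged 0% and aged 5% mice, against 105, 143, 103 and 104 in the members, which was lower in every mouse. In the 57 droplets the median number of *Ttr* UMIs was 34, 25, 14.5 and 15 in these mice, and *Ttr* took 756, 472, 348 and 343 of every 10000 non-globin UMIs. How much of the member RNA was free RNA taken up with the cell was not tested.

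Levels per mouse in these 57 droplets were as follows for the leading red cell genes. *Alas2* took 244, 258, 214 and 306 of every 10000 non-globin UMIs in the adult 0%, adult 5%, aged 0% and aged 5% mice. *Mkrn1* took 211, 272, 266 and 235, and *Bpgm* 256, 247, 205 and 234. Over all 97 members *Alas2* took 34.6, 73.6, 35.3 and 80.2. For *Alas2* both mice on 5% inulin were above both on 0% inulin over all members and also in the droplets above 90% globin, where the 4 values lay closer together. The adult 0% value there rests on 2 droplets and 22 *Alas2* UMIs.

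The next comparison asked how the non-globin RNA of members differed from that of the 36779 other barcodes of the same mice. Counts were summed per mouse and fitted with edgeR's quasi-likelihood test with the mouse as a block. Of 20017 genes tested, 487 were higher in members (2.43%) and 841 lower (4.2%), at an adjusted p below 0.05 and a fold change above 1.5, and 246 and 795 of these had the same direction in all 4 mice. The median log2 fold change of all genes tested was -1.55. It was 0 once the 8152 genes with no UMI in any member were put at the bound set by 3 counts over the group. Where that bound lay above 0 the gene was put at exactly 0, so that this median depends on the limit. The shares of all genes called higher and lower were 0.4% and 0.576% at 90% globin or more, 1.11% and 3.13% without the division droplets, and 2.95% and 6.64% without the 19 droplets with another cell type's markers. Library totals without TMM moved the median by 0.31 and turned *Txn1* (0.27) and *Sod1* (0.05), which were not called, above 0. Of 8 genes on the list of progenitor and division genes 5 were higher, and none without the 7 division droplets, which that list had chosen. The other barcodes included the 51 with 10 to 50% globin, which also held red cell RNA.

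All 8 genes of heme synthesis were higher in members, with a median log2 fold change of 4.17, although *Alad* (-1.20 and -1.01) and *Ppox* (-0.33 and -0.14) were below 0 at 80% and 90% globin. *Alas2* (chrX:150547375-150570638 in GRCm38, as are all positions here) had 151, 409, 200 and 559 UMIs in the members of the adult 0%, adult 5%, aged 0% and aged 5% mice and 52, 159, 130 and 159 in all other barcodes of those mice. It rose by 11.90 ± 0.42 on the log2 scale (SE, adjusted p = 2.5e-167, higher in 4 of 4 mice). *Fech*, whose enzyme puts iron into heme, took 8.26, 21.2, 10.1 and 15.6 per 10000 non-globin UMIs in members against 0.315, 0.340, 0.340 and 0.325 in the others (log2 fold change 4.99 ± 0.36, adjusted p = 1.5e-40). These 2 were the genes of the pathway called higher when members were limited to at least 90% globin. The division droplets held 89 of the 96 *Alad* UMIs, 36 of the 38 *Uros* UMIs and 40 of the 77 *Urod* UMIs. Without these 7 droplets 4 of the 8 genes were higher.

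Of 11 iron supply genes, 5 were higher and 6 did not pass, with a median of 0.81. Without the division droplets 3 were higher, and at 90% globin or more 1 was. The mitochondrial iron importer *Slc25a37* rose most (log2 fold change 6.34 ± 0.38, adjusted p = 1.3e-60). Ferritin light chain *Ftl1* rose by 1.78 ± 0.28, while its heavy chain partner *Fth1* had a log2 fold change of 0.33 ± 0.27 that did not pass (adjusted p = 0.64). The transferrin receptor *Tfrc* was higher over all members (2.10 ± 0.36, adjusted p = 2.8e-07), but of its 142 UMIs 65 lay in droplets with another cell type's markers, 60 in division droplets and 2 in the 57 droplets above 90% globin. Endothelial cells of the brain are also known to carry this receptor.

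Among 10 redox genes 5 were higher and none lower, with a median of 0.85, and at 90% globin or more 4 were higher and 1 lower. *Gpx1* took 52.1, 113, 57.5 and 65.1 per 10000 in members against 1.83, 1.94, 1.98 and 2.06 in the others (log2 fold change 4.81 ± 0.31, adjusted p = 4.3e-51). *Blvrb* (4.29 ± 0.35), *Glrx5* (3.64 ± 0.34), the peroxiredoxin gene *Prdx2* (3.25 ± 0.31) and the catalase gene *Cat* (1.73 ± 0.39) followed. *Gpx4*, *Sod1* and *Txn1* had log2 fold changes of -0.62, -0.26 and -0.03 that did not pass.

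All 20 genes of the red cell membrane and its skeleton were higher, with a median of 6.24. Without the division droplets 11 were higher and *Aqp1* was below 0, and *Tmod1* was below 0 at 80% and 90% globin. *Slc4a1* (chr11:102348824-102366203), the band 3 anion exchanger, had 25, 169, 74 and 41 UMIs in the members of the 4 mice and 68, 268, 200 and 19 in all other barcodes (log2 fold change 9.89 ± 0.45, adjusted p = 2.2e-105). Limited to droplets of at least 90% globin, 5 of the 20 were higher, among them *Slc4a1*, *Tspo2*, *Cd24a* and *Epb41*, the protein 4.1 gene, with 134 of its 297 UMIs there and 33 in the division droplets. *Sptb* and *Gypc* had no UMI in those 57 droplets. *Slc4a1* had 17 there and 227 in the 7 division droplets.

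Of 12 erythroid transcription factor genes 9 were higher and none lower. *Klf1* had a log2 fold change of 8.42 ± 0.52 (adjusted p = 1.6e-56) and *Gata1* of 8.13 ± 1.01 (adjusted p = 1.6e-13), the latter on 11 UMIs. Without the division droplets 2 of the 12 were higher, and at 90% globin or more 0 of the 12 were. The adult 0% mouse, without a division droplet, had no UMI of either factor in its members.

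Of 23 reticulocyte maturation genes tested, 20 were higher and none lower, with a median of 2.52. Without the division droplets 19 were higher, and at 90% globin or more 11 were higher and 1 lower. *Mkrn1* (chr6:39397804-39420462) took 47.7, 64.4, 32.1 and 61.0 per 10000 in members against 0.645, 0.710, 0.705 and 0.713 in the others (log2 fold change 5.85 ± 0.34, adjusted p = 8.3e-65). The ubiquitin-conjugating enzyme gene *Ube2l6* rose by 7.01 ± 0.37 on the log2 scale, *Tent5c*, a poly(A) polymerase gene, by 5.69 ± 0.36 and the mitophagy receptor gene *Bnip3l* by 2.85 ± 0.32. Of *Mkrn1* UMIs 708 lay in the 57 droplets above 90% globin and 44 in the division droplets, and of *Bnip3l* UMIs 220 and 16. The polyubiquitin gene *Ubb* was higher (1.64 ± 0.27).

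Of 11 genes of red cell metabolism 3 were higher, 6 lower and 2 not called, and at 90% globin or more 1 was higher and 2 lower. *Bpgm* (chr6:34476207-34505613) took 50.01, 55.3, 25.04 and 57.7 per 10000 in members against 0.333, 0.327, 0.293 and 0.323 in the others (log2 fold change 6.82 ± 0.35, adjusted p = 2.0e-79), and only 3 of its 1069 UMIs lay in the division droplets, against 656 in the droplets above 90% globin. The carbonic anhydrase gene *Car2* rose by 3.72 ± 0.31, with 607 of its 1006 UMIs in the division droplets. Glycolytic genes were lower, *Gapdh* by a log2 fold change of -2.02 ± 0.33 (adjusted p = 8.9e-08), *Pgk1* by -2.23 ± 0.46 and *Pkm* by -1.54 ± 0.36, along with *Eno1*, *Tpi1* and *Aldoa*. The heme-regulated kinase gene *Eif2ak1* was higher (2.41 ± 0.47), with 21 of its 34 UMIs in the division droplets and 0 in the droplets above 90% globin, and it was not called without the division droplets (1.37, adjusted p = 0.22).

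**Figure D4:**
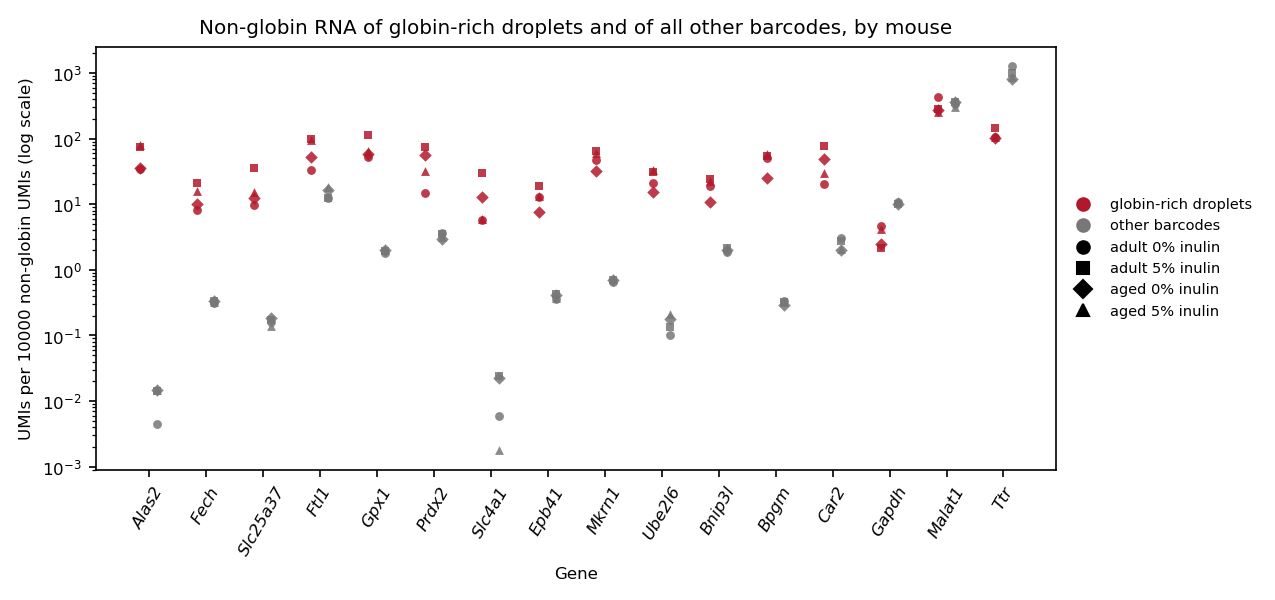
Level of named genes in UMIs per 10000 non-globin UMIs (log scale) in the members (red) and in all other barcodes (gray) of each mouse, with 1 symbol per mouse. For *Alas2* and *Slc4a1* the members of every mouse lie far above the other barcodes, for *Malat1* the symbols overlap, and for *Gapdh* and *Ttr* the members lie below.

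Among the 15 genes with the largest rise in all 4 mice were, in order, *Apol11b* (log2 fold change 12.29 ± 0.55), *Alas2*, *Slfn14*, *Trim10*, *Epb42*, *5430401H09Rik*, *Slc4a1*, *Kel*, *Rhd*, *Btnl10*, *Tspo2*, *Rec114* and *Ctse* (8.14 ± 0.48). Of the 15, 8 are on the erythroid lists. *Epb42* encodes protein 4.2 of the membrane skeleton, *Kel* and *Rhd* carry blood group antigens, and *Tspo2* belongs to the translocator protein family. *Apol11b*, an apolipoprotein L gene, had 4, 86, 33 and 62 UMIs in members and 0, 23, 12 and 19 in all other barcodes. *Slfn14*, a gene whose protein acts on ribosomes and RNA, rested on 26 UMIs, 22 of them in the 14 remaining droplets and none in those above 90% globin.

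The 10 genes with the largest fitted fall had no UMI in any member. Of these, the ankyrin gene *Ank2*, which is used by neurons and other cells, was at least 10.4-fold lower than in the other barcodes, *F5* at least 9.19-fold, the antigen presentation gene *H2-Aa* at least 7.52-fold and *Ddr1* at least 6.61-fold, against a floor of 3 counts over all members. *Dynlrb2*, *Fjx1*, *Enho*, *Pygb*, *Ntm* and *Coq7* had bounds between 5.56 and 6.40.

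Markers of other brain and blood cells were called lower for some lists and for others not. At 90% globin or more, where fewer UMIs were left, the lower calls were 2 for astrocyte, 1 for neutrophil, 3 for microglia, 3 for endothelial and 0 for choroid plexus and ependymal genes. Over all members, all 8 astrocyte genes, all 6 choroid plexus genes, all 6 neutrophil genes and all 4 ependymal genes were lower in members. Of 9 microglia genes 5 were lower. Of 8 endothelial genes none was called in either direction, while 4 were higher without the division droplets. The median log2 fold change of the endothelial genes was 0.50, beside -1.55 for all genes. The latter was 0 with the genes at no UMI put at their bound, or at 0 where the bound lay above 0. Lower calls were also made for 3 of 6 mural cell genes, 2 of 7 oligodendrocyte genes and 1 gene each of the B cell, monocyte and fibroblast lists. None of the 6 neuronal, 6 T and NK cell and 6 platelet genes was called. Of 8 early response genes that dissociation can induce, *Fos*, *Junb* and *Egr1* were lower and 5 were not called. Defining genes of B cells (*Cd79a*, *Cd79b*, *Ms4a1*) and T cells (*Cd3e*, *Cd3d*) and the platelet genes *Pf4* and *Ppbp* were at 0 UMIs in all members. The endothelial list had 2993 UMIs in members, *Cldn5* the most with 621, and 608 of these lay in the 19 droplets with another cell type's markers and 9 in the droplets above 90% globin. Without the 19 droplets, which these lists had themselves chosen, all 8 endothelial genes and all 9 microglia genes were lower. *Malat1* took 431, 279, 277 and 253 per 10000 over all members against 332, 365, 362 and 303 in the others and did not pass (-0.48 ± 0.22, adjusted p = 0.22), and at 90% globin or more it was lower (-4.15, adjusted p = 0.0061).

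The balance between the 2 beta globin genes was not the same in all droplets. *Hbb-bt* made up 16.3%, 16.9%, 14.4% and 15.3% of *Hbb-bs* and *Hbb-bt* UMIs in the adult 0%, adult 5%, aged 0% and aged 5% mice, over all members. Among the 57 droplets above 90% globin, however, the median was 2.62% in the 12 droplets under 5000 UMIs (0.856% to 14.6%), 11.4% in the 11 droplets from 5000 to 10000 UMIs and 17.4% in the 34 droplets with 10000 or more (8.98% to 20.7%). Across these 57 droplets the *Hbb-bt* share had a Spearman rho of 0.647 and a Pearson r of 0.721 with UMIs, and a rho of 0.667 with *Alas2* UMIs. Within the mice with at least 10 such droplets the rho with UMIs was 0.535 (adult 5%, 22 droplets), 0.600 (aged 0%, 10 droplets) and 0.676 (aged 5%, 23 droplets). These are descriptions over droplets that share a library and whose globin counts are part of their UMIs. The *Hba-a2* share of the alpha genes had a rho of 0.087 with UMIs and lay between 36.4% and 48.2%.

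**Figure D5:**
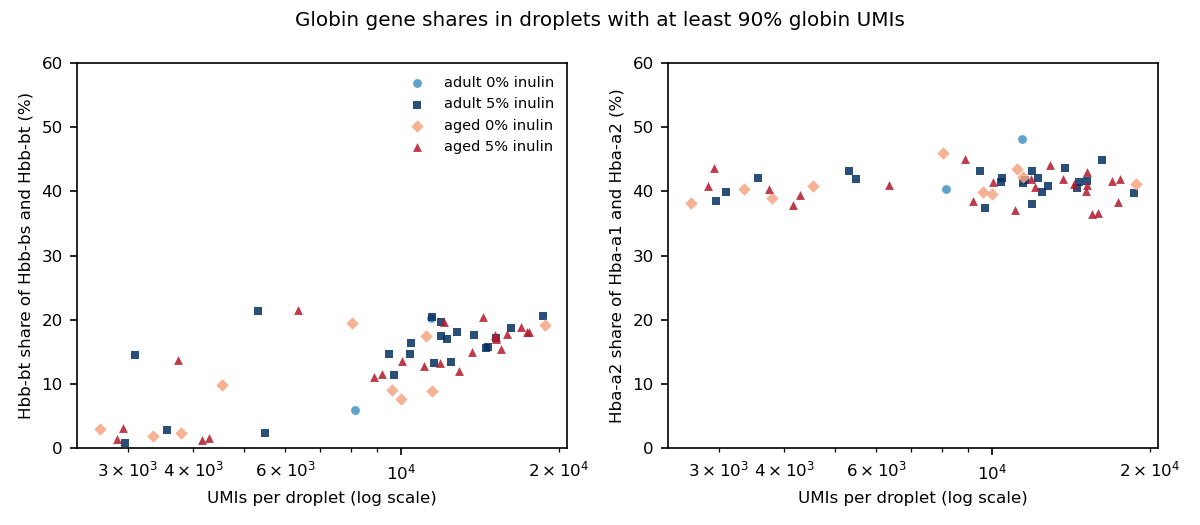
*Hbb-bt* share of the beta globin UMIs and *Hba-a2* share of the alpha globin UMIs (percent) against UMIs per droplet (log scale) in the 57 droplets above 90% globin, with a symbol and color per mouse. *Hbb-bt* shares under 5% occur at up to 5481 UMIs, while the *Hba-a2* share stays between 36.4 and 48.2%.

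From the lowest to the highest UMI class *Alas2* went from 126 to 222 and 303 per 10000 non-globin UMIs over the 57 droplets, though in the aged 0% mouse it was 89.7, 294.7 and 233.7 on 4, 3 and 3 droplets, while *Ttr* went from 677 to 494 and 352. The median number of *Ttr* UMIs per droplet was 17.0, 19.0 and 21.5 with the mice pooled, but the mice differed. It was 21, 21 and 26 in the adult 5% mouse and 14.5, 12 and 16 in the aged 0% mouse. In the aged 5% mouse it fell from 21 to 19 and 15. At the other end, the 7 division droplets had an *Hbb-bt* share of 15.3% to 26.0% (median 22.1%) and an *Hba-a2* share of 24.9% to 33.2% (median 30.5%). The *Hba-a2* range did not overlap that of the 57 droplets. In the 15 barcodes between 10 and 50% globin with the division signal and without another cell type's markers, the median *Hbb-bt* share was 29.6% and the median *Hba-a2* share 24.2%. How the reads were split between the copies limits these shares, since 101 of 201 windows of 100 bases in the last 300 bases of the *Hba-a1* transcript, and 42 of 201 of *Hbb-bs*, also occur in the partner gene, and reads from them cannot be assigned to 1 gene.

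Mitochondrial RNA was unevenly spread. It took 4.39%, 3.57%, 5.07% and 8.69% of the non-globin UMIs of members in the adult 0%, adult 5%, aged 0% and aged 5% mice. The high value of the aged 5% mouse came in part from 5 droplets in which it took at least 25% of non-globin UMIs, with 2226 of that mouse's 6058 mitochondrial UMIs. These 5 had 1 to 5 *Malat1* UMIs and a globin share of 80.5% to 92.5%. No member of the other mice reached 25%. Aged and adult mice did not overlap in this share over all members, with a difference of 2.90 percentage points (exact permutation p = 0.333, adjusted 0.733). In the droplets above 90% globin the shares were 5.89%, 5.07%, 5.52% and 8.10% in the same order of mice, and the age groups overlapped.

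Between aged and adult mice no gene of the members' non-globin RNA was called. The test had 981 genes, and 0% were higher and 0% lower at the threshold by edgeR, with 2 genes at an unadjusted p below 0.05 and 0 calls by DESeq2. These were the thioredoxin-interacting gene *Txnip* with 12 and 23 UMIs in adult and 5 and 7 in aged members, and the metallothionein gene *Mt1* with 9 and 11 in adult and 27 and 38 in aged members. The class I gene *H2-K1*, with 14 and 17 UMIs in adult and 45 and 54 in aged members, had an unadjusted p of 0.053. On counts simulated with a dispersion of 0.05 this test found 97 of 100 genes changed 4-fold and 25 of 100 changed 2-fold, while the standard error of *Alas2* by age in the real fit was 0.69 on the log2 scale, so that real changes of this size could be missed. Leaving out the adult 5% mouse, which held 3 of the 7 division droplets, leaves the adult side with 1 mouse that has none and gave 41 genes higher and 3 lower in aged members. Among the higher genes were *Mki67*, *Top2a*, *Klf1*, *Rhd* and *Hemgn*.

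Between 5% and 0% inulin no gene was called either (0% in each direction of 981 tested, 27 at an unadjusted p below 0.05), while DESeq2 called 6 genes higher (0.612%). Among them were *Cst3*, *Ctss*, *C1qa*, *C1qb* and *Tyrobp*, genes that microglia use. *C1qa* had 1, 64, 3 and 93 UMIs in the members of the adult 0%, adult 5%, aged 0% and aged 5% mice, and 58 of the 64 and 85 of the 93 came from the 1 droplet per mouse that led with microglia markers. These 2 droplets held 90.9% and 90.8% of the microglia list UMIs of the members of their mice. Their globin shares were 51.8% and 51.4%, close to the 50% limit. Without the division droplets edgeR called 16 of 600 genes tested (2.67%) higher on 5% inulin, of which 8 were on the microglia list, among them *C1qa*, *Cx3cr1* and *P2ry12*, and 1 was *Apol11b*. Without the 2 droplets that led with microglia markers *C1qa* had 6 and 8 UMIs in the members of the mice on 5% inulin.

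No gene of the 8 erythroid lists was called by diet, by edgeR or under the alternatives run. Over the 8 erythroid lists the median log2 fold change between 5% and 0% inulin ran from 0.05 for the 6 metabolism genes tested to 1.02 for the 5 iron supply genes, with 0.87 for heme synthesis, 0.72 for maturation, 0.70 for membrane and 0.47 for transcription factor genes, beside -0.03 for all genes tested. *Alas2* had a log2 fold change of 1.21 ± 0.38 (adjusted p = 0.95 by edgeR, unadjusted 0.020). The share of members above 90% globin moved with these values, at 2 of 11 and 10 of 18 members in the mice on 0% inulin and 22 of 30 and 23 of 38 on 5% inulin. Its part in them was not tested, because the adult 0% mouse kept fewer than 10 members above 80 or 90% globin and no fit was made there. The erythroid lists took 6.59%, 14.8%, 8.64% and 9.61% of non-globin UMIs in the adult 0%, adult 5%, aged 0% and aged 5% mice, a difference by diet of 4.58 percentage points (exact permutation p = 0.333). That difference was smaller without the adult 5% mouse and larger without the aged 5% mouse.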

How the data were processed

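Non-normalized UMI count matrices were deposited per mouse. Per the labels and the study's methods, the authors made these counts with Cell Ranger 3.1.0 on GRCm38. Each deposited matrix lists 55573 genes. Here counts were read as deposited, with no doublet caller, free RNA correction or cell filter beyond the rule. Non-globin UMIs were summed per mouse and tested with edgeR 4.0.16 (TMM, filterByExpr, quasi-likelihood) at Benjamini-Hochberg adjusted p below 0.05 and fold over 1.5. DESeq2 1.42.0 was an alternative. Age and diet fits needed at least 10 members per mouse. Per-mouse summaries were compared by exact permutation. On counts simulated with a dispersion of 0.05 the comparison with other barcodes found 27 of 100 genes changed 4-fold and 0 of 100 changed 2-fold, with all 6 of the 4-fold genes expected at 100 or more member UMIs among them and 4 false calls of 20030 genes. Named genes were the fixed lists, the 20 most abundant, the 15 largest rises and 10 largest falls called with the same direction in all mice, and genes called by age or diet, also under alternatives. Outside these rules, *Txnip*, *Mt1* and *H2-K1* were named for their small unadjusted p by age, and none of them was called. *Fam220a* has 2 identifiers, of which the first was used, and *Ahsp* was not analysed here. Gene coordinates came from GENCODE vM21 and promoters from RefSeq, both on GRCm38. The members and lists were chosen with earlier results of these data known. Alternatives were other globin and UMI limits, omission of droplets or of each mouse, other comparison barcodes, other scaling and no filter. Some genes of the lists are counted but not reported by name here.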

Additional observations from a re-analysis of the deposited data

Results flagged for a closer look

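The difference between aged and adult mice in 4 summaries of the members had opposite signs under the 2 diets, with 1 mouse in each condition, and the difference between the diets was not tested. The median number of UMIs per member differed by -814.5 (aged minus adult) at 0% inulin and by 602 at 5% inulin. The median globin share differed by 22.3 percentage points at 0% inulin and by -1.23 at 5% inulin, and the adult 0% mouse, whose median was 69.4%, had 6 of its 11 members among the droplets with another cell type's markers. The *Hba-a2* share of alpha globin UMIs differed by -2.86 and 0.233 percentage points. The share of non-globin UMIs from the erythroid lists differed by 2.05 percentage points at 0% inulin and by -5.17 at 5% inulin.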

How the results depend on the processing

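Against the other barcodes, the 487 higher genes became 117 at 80% globin or more, 80 at 90% or more and 222 without the division droplets, and 320 to 480 with 1 mouse left out. The 841 lower genes became 338 by DESeq2, 484 without TMM, 205 and 115 at 80% and 90% globin, 1328 without the droplets with another cell type's markers, and 433 to 736 with 1 mouse left out. By age, 0 calls became 1 without a filter (*Gkn3*), and leaving out 1 mouse gave 0 to 41 higher and 0 to 3 lower. By diet, 0 higher became 6 by DESeq2, 11 without a filter, 16 without the division droplets and 0 to 7 with 1 mouse left out.

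Several differences between mice turned. By age, median UMIs (-106) became 747.5 without the droplets with other markers, and -1148 to 935.5 with 1 mouse left out. Median globin share (10.5 percentage points) became -0.630 and -0.622 at 80% and 90% globin, and -2.10 to 23.1 with 1 mouse left out. Alpha share (0.704) became -0.422 at 80% and -0.106 without the droplets with other markers. Erythroid share (-1.56) became 0.689 at 90%, and -5.66 to 2.54 with 1 mouse left out. By diet, median genes (-819) became 14.5 at 90% globin, and -1676 to 38.8 with 1 mouse left out. Alpha share (0.301) became -1.51 at 80% and -1.23 without the droplets with other markers, and -0.316 to 0.919 with 1 mouse left out. Ribosomal protein share (-0.326) became 0.470, 0.429 and 0.519 at 80%, at 90% and without the droplets with other markers, and -1.60 to 0.9495 with 1 mouse left out. With 1 mouse left out, the *Hba-a2* share (-0.912) ran from -2.34 to 0.519, the *Hbb-bt* share (0.714) from -0.235 to 1.66 and the mitochondrial share (1.40) from -1.16 to 3.96. The share of barcodes that were members kept its direction by age and by diet under every alternative that left members. The cause of these changes was not tested. Where 1 mouse was left out, the lone mouse of an arm was assumed to vary like the others.

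Of 83 named genes called higher, 12 had a negative log2 fold change under some setting. At 80% and 90% globin these were *Alad* (-1.20, -1.01), *Fbxo7* (-0.65, -0.46), *Ppox* (-0.33, -0.14), *Stmn1* (-1.62, -3.05), *Tfrc* (-0.99, -1.77), *Tmod1* (-0.20, -0.011) and *Tubb5* (-2.45, -3.89), with *Slc25a38* (-0.10) at 80% and *Sox6* (-0.29) at 90%. Without the division droplets they were *Alad* (-0.045), *Aqp1* (-2.38), *Pcna* (-0.58), *Stmn1* (-0.42), *Top2a* (-1.76) and *Tubb5* (-0.43).

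The replicate numbers, given in accession order, pair no mice. With diet as a block for age and age as a block for diet, 0 of 981 genes were called in each (0 and 16 at an unadjusted p below 0.05). With 5 UMIs of another cell type as the limit no member was left in any mouse, since *Ttr* alone passed it. Age and diet could not be fitted at 80% or 90% globin or without the droplets with other markers, which left 3, 2 and 5 members in the adult 0% mouse. The 97 droplets held 225556 non-globin UMIs in all, which limits the precision for rare genes. The sets of droplets and the 20 UMI limits were chosen after seeing the data.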
